A study of Mus musculus with 60 samples.

Results

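Galectins are secreted and intracellular lectins, proteins that bind β-galactoside sugars through a conserved carbohydrate recognition domain. By cross-linking glycans on cell surfaces they tune adhesion, signalling and the survival of immune cells, and what they can bind is set by the glycosyltransferases that branch, extend and cap the sugar chains. Lgals1, Lgals2 and Lgals7 encode prototype galectins with a single binding domain, Lgals3 encodes the chimera type with a long tail that lets it form oligomers, and Lgals4, Lgals8, Lgals9 and Lgals12 encode tandem-repeat forms with a pair of domains. Lgalsl encodes a galectin-related protein that lacks the residues needed for lactose binding. The 9 genes were taken as every feature of an Affymetrix array made to order for genes of glycan biology whose RefSeq identifier maps to one of them. All 9 listed genes had a feature, 1 each, among 909 named genes on 963 named features, so no member was lost. The mapping rule itself used no measured value, though the list was chosen with earlier results of these data known. The features of Lgals1, Lgals3, Lgals4, Lgals7 and Lgals9 (5 of 9) carry a suffix for probes shared with other transcripts, so near-identical copies, such as mouse Lgals6 beside Lgals4, cannot be separated from them.

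Total RNA of mouse tissues was labelled with biotin and hybridised to 60 arrays from 18 animals, in 18 groups. The first line compared mice labelled St6galnac2 -/- (KO) with +/+ (WT) mice in thyroid, lymph node, brain and intestine. The second line compared B4galnt1 -/- B4galnt2 -/- double knockout mice (DKO) with WT mice, +/+ at both genes, in thymus, testes, mammary gland and kidney. C57 mice, an outside wild-type control, gave brain and small intestine from 3 animals. St6galnac2 encodes a sialyltransferase that acts on O-linked chains, and B4galnt1 and B4galnt2 encode transferases of N-acetylgalactosamine, the first acting in ganglioside synthesis. Ages, the driver of the deletion and the exons removed were not given in the sources used here. KO and WT groups held 3 animals each in thyroid, lymph node and brain, where WT animal 9099 gave 2 brain arrays, and 2 and 3 in intestine. DKO and WT groups held 5 and 3 animals in thymus, 3 and 3 in testes (all male), 5 and 2 in mammary gland (males and females), and 5 and 4 in kidney. The study screened transcripts to choose tissues of each line for glycan analysis.

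All values are deposited log2 expression values after robust multi-array averaging (RMA), and the number of arrays limits the precision. Each array was first set against its labelled tissue with the galectins left out. Of 60 arrays, 56 matched their own tissue best (median correlation 0.94, lowest 0.534). The other 4 did not: a brain array of WT animal 9099 matched intestine, its intestine array matched brain, and the thymus arrays of WT animals N3738 and N3740 correlated under 0.3 with thymus. They were left out of every result below unless stated, which leaves 2 WT intestine arrays, and 1 WT thymus array (N9700). Some galectins followed the same split and others did not. This 9099 brain array read 13.61 for Lgals4, where the other 9 brain arrays (C57 included) reached at most 6.49. The N3738 and N3740 thymus arrays read 7.19 and 5.86 for Lgals9, where the 6 thymus arrays kept lay between 8.27 and 9.32. Lgals7 read 7.11 and 6.965 on the same thymus arrays, inside the 6.73 to 7.31 of those kept. On the 9099 brain array Lgals7 read 5.98, inside the 5.65 to 6.49 of the other brain arrays. The deleted genes gave no check of the genotype labels: St6galnac2 lay between 8.65 and 8.75 in KO intestine and between 8.74 and 8.77 in WT intestine. B4galnt2 lay between 3.64 and 4.15 in DKO kidney and between 3.58 and 4.05 in WT kidney. These kidney values lie below 4.21, the 25th percentile of all values, so they could not show a loss. In mammary gland B4galnt2 read 3.74 to 8.53 in DKO, against 3.93 and 8.09 in WT. B4galnt1 read 4.83 to 7.93 in DKO mammary gland, against 5.67 and 6.38 in WT mammary gland. Whether the probes lie in the deleted parts was not tested. Among tissue markers, Cd2, the only 1 of 7 listed T cell markers measured, read 4.67 to 5.96 on the arrays labelled thymus and 7.98 to 10.61 on those labelled lymph node, while the 6 measured connective tissue markers of 9 averaged 9.79 to 10.43 in thymus, above the 7.42 to 8.56 of lymph node. Thymus is therefore used as a label only. The tissues of the 2 lines do not overlap, so tissue and line cannot be told apart across them, and in bulk tissue fewer cells of a type and less RNA per cell cannot be told apart.

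Promoters are shown for the 3 genes with the widest rise in intestine among those in the RefSeq promoter table (GRCm38.p6). Each runs from 250 bases before to 50 bases after the start used there, 5′ to 3′ on the gene's strand. For Lgals4 that start lies downstream of the annotated start of the gene (chr7:28833122), so its window lies inside the gene. Lgals2 lies at chr15:78855480-78855779 (minus strand), Lgals4 at chr7:28833544-28833843 (plus strand) and Lgals9 at chr11:78984875-78985174 (minus strand). Capitals mark matches on either strand to 6 motifs. These are the CDX factor core, spelled TTTAT, the shorter site of HNF1 factors, spelled GTTAAT, the site of the zinc finger factors that include Gata4, spelled AGATAA, the HNF4 core, spelled CAAAG, the interferon response core, spelled GAAANNGAA, and the core promoter box that places the start, spelled TATAAA.
Lgals2: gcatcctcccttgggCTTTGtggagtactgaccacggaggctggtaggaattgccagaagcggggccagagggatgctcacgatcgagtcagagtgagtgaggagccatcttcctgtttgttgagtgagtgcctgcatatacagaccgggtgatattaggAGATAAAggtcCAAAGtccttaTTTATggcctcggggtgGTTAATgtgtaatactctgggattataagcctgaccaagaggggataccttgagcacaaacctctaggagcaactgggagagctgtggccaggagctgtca
Lgals4: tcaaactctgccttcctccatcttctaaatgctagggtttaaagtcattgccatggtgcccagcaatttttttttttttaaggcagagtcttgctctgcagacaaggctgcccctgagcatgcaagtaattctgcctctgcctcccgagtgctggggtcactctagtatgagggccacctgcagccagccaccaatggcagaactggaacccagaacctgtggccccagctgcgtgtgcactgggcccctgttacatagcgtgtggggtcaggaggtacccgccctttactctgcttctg
Lgals9: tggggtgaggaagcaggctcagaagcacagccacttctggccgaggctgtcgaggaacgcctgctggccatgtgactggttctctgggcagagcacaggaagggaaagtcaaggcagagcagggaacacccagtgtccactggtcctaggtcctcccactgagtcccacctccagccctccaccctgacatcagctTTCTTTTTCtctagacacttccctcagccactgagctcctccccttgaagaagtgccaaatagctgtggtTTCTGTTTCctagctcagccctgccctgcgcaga
The Lgals2 promoter held 4 of the 6 motifs, with AGATAA at base -90 overlapped by a reversed TTTAT at -88, CAAAG at -79, TTTAT at -68 and GTTAAT at -51, besides a reversed CAAAG at -235. The Lgals4 window, which lies inside the annotated gene, held none of these letters, and the bases before the annotated start were not searched. The Lgals9 promoter held the interferon response core in reverse at -54 and again at 16. Of all 32851 promoters of this length, 40.01% held TTTAT, 7.10% GTTAAT, 11.2% AGATAA, 53.9% CAAAG, 8.56% GAAANNGAA and 13.6% TATAAA. The matches are a description of letters.

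All 9 galectins differed among tissues, whereas 1 was called in a comparison of genotypes. The tissue means of Lgals2 spanned 7.375 log2 units, from intestine to lymph node, and those of Lgals4 spanned 7.371, from intestine to brain. Whether the low ends are array background was not tested, and where they are, the span of the transcript is larger. The means of Lgals8 spanned 1.125 log2 units between intestine and brain. The tissue differences rest on a moderated F test over the 8 tissues (limma, adjusted p at most 0.000692), which 99.3% of the 963 named features also passed. With KO and WT groups of a tissue weighted equally, the range of the 8 tissue means had a median of 4.49 on the log2 scale over the 9 galectins, against 1.97 over all 909 genes, and 7 of 9 lay above that median. Intestine held the highest mean of 5 of 9 galectins (12.7% of all genes peaked there), and brain the lowest of 6 of 9 (26.5% of all genes).

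Each tissue was set against the mean of the other 7, with a call at an adjusted p under 0.05 and a log2 difference of at least 1. Over the 8 tissues 12 galectin values were higher and 19 lower. In intestine 4 of 9 were higher (12.9% of all features) and 1 lower (15.6%). In mammary gland 3 were higher (10.7%) and 2 lower (3.12%). In brain 1 was higher (16.8%) and 6 were lower (16.4%), and in testes 0 were higher (8.52%) and 4 lower (19.3%). In thymus 2 were higher (8.41%) and 0 lower (5.3%), and in thyroid 2 were higher (6.54%) and 1 lower (6.65%). In kidney 0 were higher (11.4%) and 3 lower (8.93%), and in lymph node 0 were higher (11.4%) and 2 lower (8.52%). The intestinal peaks of Lgals2 and Lgals4 raise the mean that every other tissue is set against. Lgals2 was called lower in thyroid, lymph node, brain, mammary gland and kidney, whose own means lay between 4.87 and 5.18. Lgals4 was called lower in brain, mammary gland and kidney. With intestine left out of the tissues compared, an alternative chosen after the values were seen, there were 10 lower calls in place of 19.

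**Figure D1:**
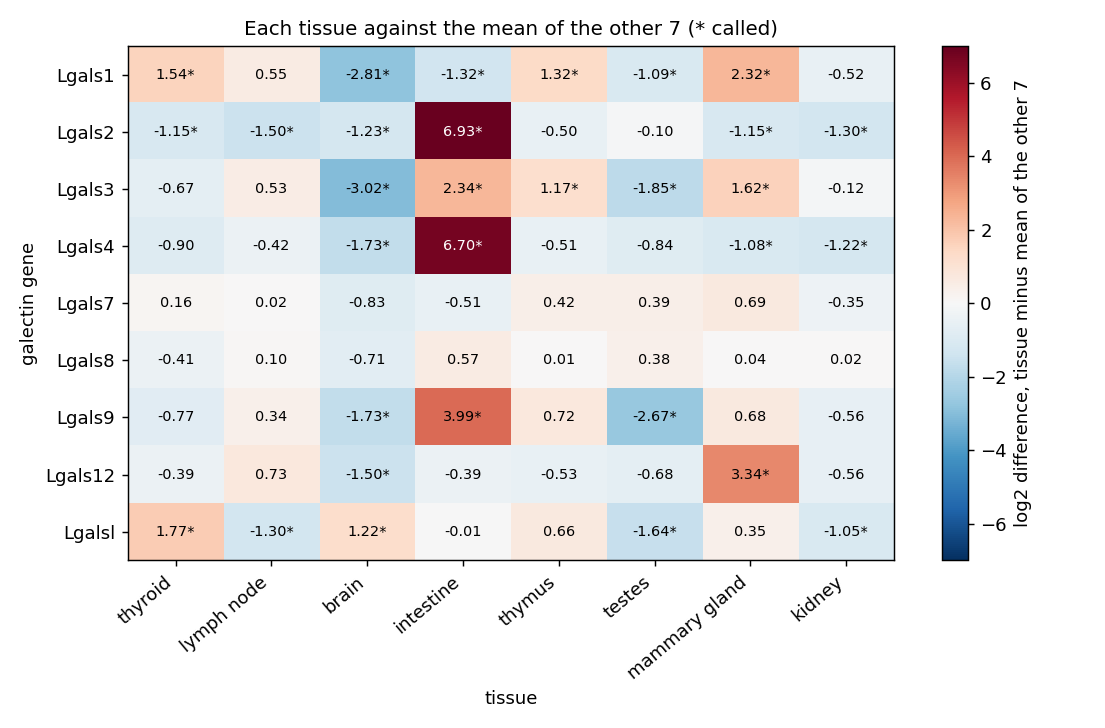
Log2 difference of each of the 9 galectins (rows) in each tissue (columns) from the mean of the other 7 tissues, by limma, with an asterisk where the difference was called. Intestine holds the strongest rises, 6.93 for Lgals2 and 6.70 for Lgals4, and brain holds 6 falls. The falls of Lgals2 and Lgals4 are taken from a mean that includes their intestinal peaks.

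**Figure D2:**
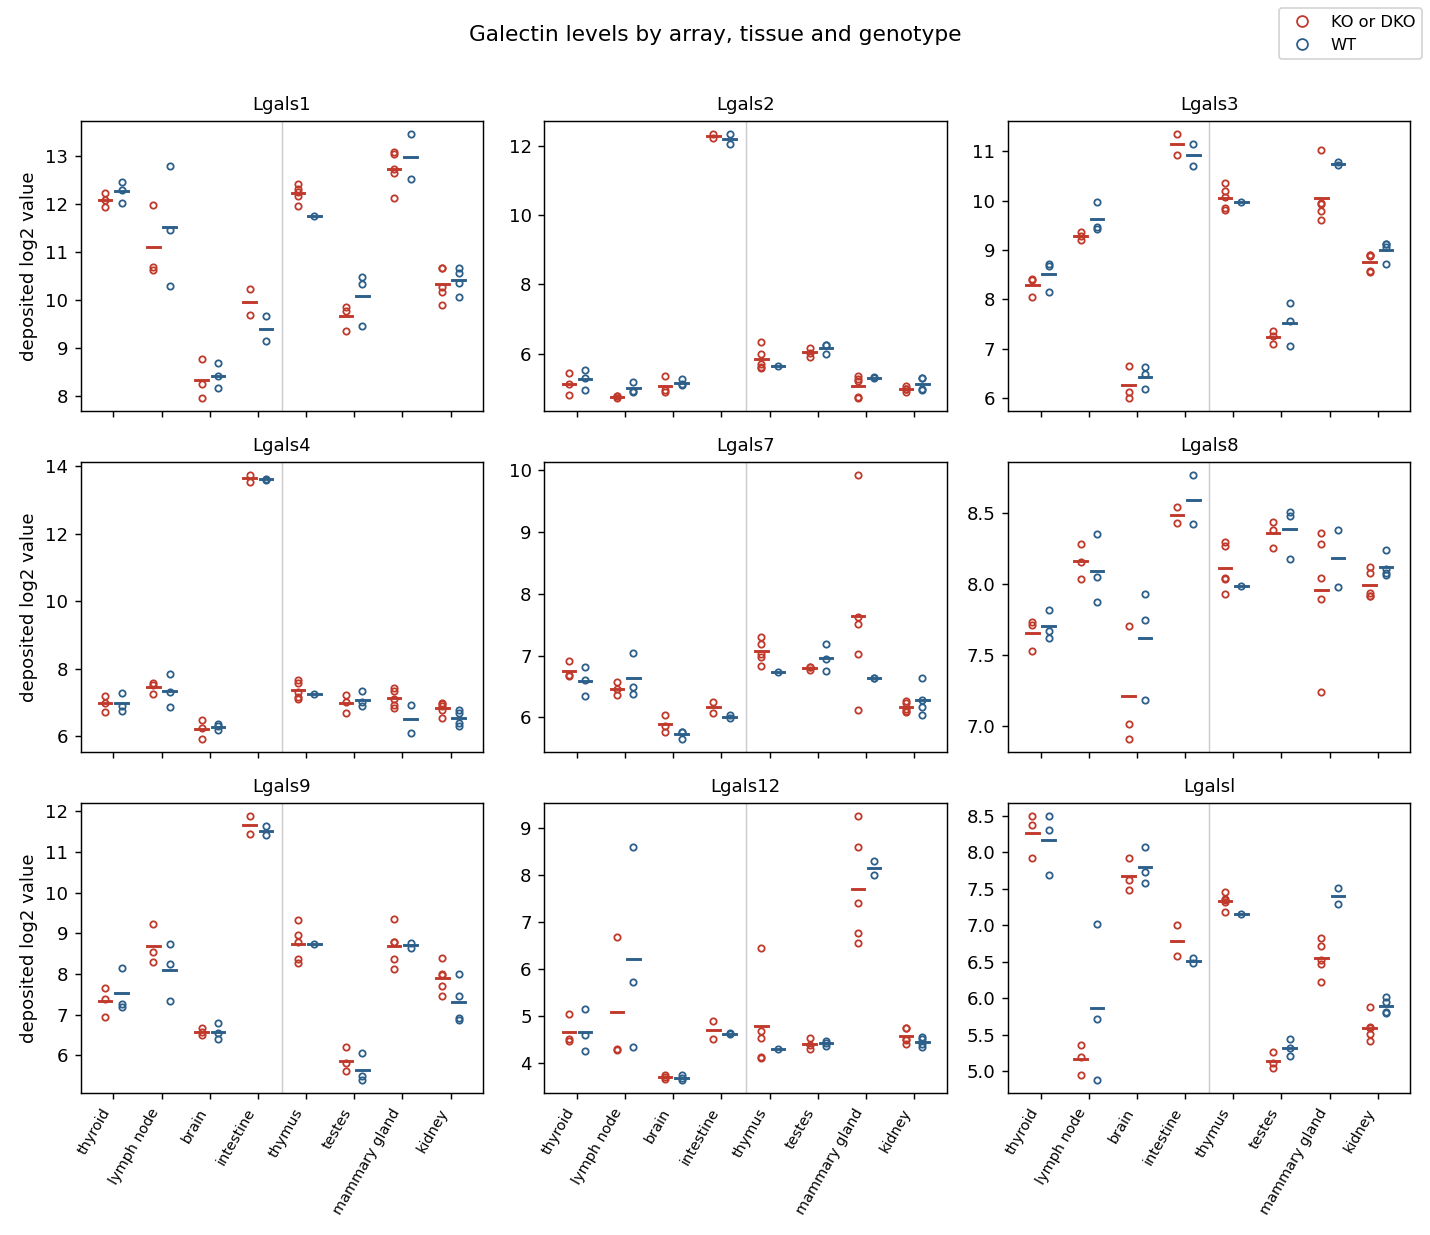
Deposited log2 value (y axis) of each galectin on every array of both lines that matched its tissue, by tissue (x axis), with KO or DKO arrays left of WT arrays, a point for each array and a line for the group mean. The grey line parts the tissues of the St6galnac2 line (left) from those of the B4galnt1/B4galnt2 line (right), and KO and WT points overlap in most tissues.

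Lgals2, Lgals4, Lgals9 and Lgals3 formed the intestinal group. Lgals4, a galectin of the gut epithelium that binds sulfated glycolipids in apical membranes, read 13.73 and 13.54 in KO intestine, against 13.62 and 13.59 in WT intestine. No array of another tissue of the 2 lines exceeded 7.83, so intestine stood apart without overlap. Its difference from the other 7 tissues was 6.70 ± 0.14 (SE, limma, adjusted p = 2.58e-33). In the other tissues Lgals4 averaged 7.39 ± 0.33 in lymph node, 7.35 ± 0.22 in thymus, 7.03 ± 0.23 in testes, 6.97 ± 0.23 in thyroid, 6.94 ± 0.44 in mammary gland, 6.70 ± 0.24 in kidney and 6.25 ± 0.20 in brain (SD over arrays, n = 6 each except 7 in mammary gland and 9 in kidney, as below). All neighbours in this order below intestine overlapped in their ranges.

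Lgals2, a second gut galectin, read 12.35 and 12.23 in KO intestine, against 12.07 and 12.35 in WT intestine, a difference from the other tissues of 6.93 ± 0.11 (SE, limma, adjusted p = 1.28e-36). Its other means were 6.09 ± 0.14 in testes, 5.82 ± 0.29 in thymus, 5.18 ± 0.28 in thyroid, 5.13 ± 0.28 in mammary gland, 5.11 ± 0.17 in brain, 5.04 ± 0.15 in kidney and 4.87 ± 0.17 in lymph node. Testes and thymus stood above the rest, and no array of either read below 5.59 while none of the 5 lowest tissues exceeded 5.52. Whether these lower values are transcript or array background was not tested, since the deposited table holds no detection calls.

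Lgals9, which attracts eosinophils and binds the T cell receptor Havcr2 (TIM-3), read 11.87 and 11.45 in KO intestine, against 11.42 and 11.63 in WT intestine. Thymus came next at 8.74 ± 0.39, and the 2 tissues did not overlap. Mammary gland (8.69 ± 0.38) and lymph node (8.40 ± 0.63) overlapped with thymus, followed by kidney (7.65 ± 0.51), thyroid (7.43 ± 0.42), brain (6.58 ± 0.13) and testes (5.76 ± 0.32). Brain and testes stood apart from the tissues above them and from each other. The intestinal difference was 3.99 ± 0.21 (SE, limma, adjusted p = 4.75e-19), and testes fell by 2.67 ± 0.18 (adjusted p = 2.96e-16).

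Lgals3, a galectin of macrophages and epithelia, was more widely spread. It averaged 11.04 ± 0.28 in intestine (n = 4), 10.26 ± 0.56 in mammary gland, 10.04 ± 0.21 in thymus, 9.45 ± 0.28 in lymph node, 8.87 ± 0.22 in kidney, 8.40 ± 0.27 in thyroid, 7.37 ± 0.33 in testes and 6.34 ± 0.28 in brain. The top 4 overlapped with their neighbours, and gaps without overlap parted lymph node from kidney, thyroid from testes and testes from brain. The 6 measured myeloid markers of 9, which include Adgre1 and Csf1r, averaged 7.28 to 8.41 per array in mammary gland, 6.42 to 7.12 in thymus, 5.35 to 5.56 in intestine and 5.14 to 5.36 in brain. Their part in the Lgals3 levels was not tested. The difference of intestine was 2.34 ± 0.16 and that of brain fell by 3.02 ± 0.13 (SE, limma, adjusted p = 4.75e-16 and 4.09e-22).

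In intestine the 4 measured epithelial markers of 7 averaged 8.90 to 8.99 in KO arrays and 8.75 to 9.02 in WT arrays, and 4.78 to 6.43 on the arrays of the other tissues. Of these markers Muc13 and Reg3b were called higher in intestine, and the other 2 were not. Across the 8 tissue means Lgals2 and Lgals4 correlated at r = 0.98, Lgals3 and Lgals9 at 0.88, Lgals4 and Lgals9 at 0.84, Lgals2 and Lgals9 at 0.76, Lgals3 and Lgals4 at 0.60 and Lgals2 and Lgals3 at 0.50. These points share the single intestinal peak. Lgals8, which also had its highest mean in intestine, correlated with Lgals4 at 0.64 and with Lgals2 at 0.62. The outlying 9099 arrays fitted the same description with the labels exchanged. On its intestine array Lgals2 read 5.15, Lgals4 6.43, Lgals9 6.40 and Lgals3 6.59, and on the brain array that matched intestine they read 12.41, 13.61, 11.45 and 11.27. With all 60 arrays used as labelled, the intestinal differences were 5.69 ± 0.51 for Lgals2, 5.45 ± 0.52 for Lgals4, 3.18 ± 0.43 for Lgals9 and 1.51 ± 0.34 for Lgals3 (SE), all 4 still called. Against only the other 3 tissues of the same line they were 7.19, 6.75, 4.12 and 2.97.

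Lgals1, a galectin of connective tissue and muscle that can trigger death of activated T cells, was high in mammary gland, thyroid and thymus and lowest in brain. It averaged 12.80 ± 0.44 in mammary gland, 12.17 ± 0.20 in thyroid, 12.14 ± 0.25 in thymus, 11.31 ± 0.96 in lymph node, 10.37 ± 0.29 in kidney, 9.87 ± 0.46 in testes, 9.67 ± 0.45 in intestine and 8.37 ± 0.31 in brain. Only intestine and brain, the last pair in this order, did not overlap. The differences were 2.32 ± 0.21 in mammary gland, 1.54 ± 0.20 in thyroid and 1.32 ± 0.26 in thymus, and Lgals1 fell by 2.81 ± 0.20 in brain, 1.32 ± 0.24 in intestine and 1.09 ± 0.20 in testes (SE, limma, adjusted p between 3.13e-15 and 7.20e-05). The gene whose tissue means were most like it was Dcn, which encodes the collagen-binding proteoglycan decorin and is itself 1 of the connective tissue markers (r = 0.97 over 8 tissues). The 6 connective tissue markers averaged 8.61 to 10.05 per array in mammary gland, 9.79 to 10.43 in thymus, 9.03 to 9.66 in thyroid and at most 8.56 in every other tissue. Their part in the Lgals1 levels was not tested.

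Lgals12, which encodes an intracellular galectin of fat cells, peaked in mammary gland. Its values there were 9.25, 8.61, 7.40, 6.77 and 6.55 in DKO animals, against 8.31 and 7.996 in WT animals, so that both WT values fell inside the DKO range. The difference from the other tissues was 3.34 ± 0.36 (SE, limma, adjusted p = 4.70e-10). Lymph node came next at 5.66 ± 1.75, followed by thymus at 4.71 ± 0.89, thyroid at 4.67 ± 0.35, intestine at 4.67 ± 0.16, kidney at 4.53 ± 0.14, testes at 4.42 ± 0.08 and brain at 3.70 ± 0.05. Brain did not overlap with testes above it, and the other neighbours overlapped.

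The lymph node mean of Lgals12 hid single animals. KO lymph nodes read 6.69 (animal 9100), 4.30 and 4.27, against 8.60 (9094), 5.72 (9362) and 4.35 in WT lymph nodes. Lgals1 was higher in the same 3 animals, at 11.98 (9100) among KO values of 10.63 and 10.69, and at 12.80 (9094) and 11.46 (9362) with 10.30 in the other WT animal. Lgalsl was highest in 9094 as well, at 7.02, whereas the other 5 lymph nodes read 4.88 to 5.72. On the 9094 array Cd2 read 7.98 and the 3 measured B cell markers of 6 averaged 7.19, with 10.12 to 10.61 and 9.32 to 9.89 on the other 5 lymph node arrays. Angptl4, the only 1 of 6 listed adipocyte markers measured, read 10.45 in 9100 with 8.86 and 9.13 in the other KO lymph nodes, and 11.31 in 9094, 9.32 in 9362 and 9.39 in 9099 among WT lymph nodes. Prol1, a secreted gland protein, read 11.08 in 9362 and 5.12 in 9094, with 2.41 to 2.78 on the other 4 lymph node arrays. The 4 measured epithelial markers of 7 averaged 6.43 in 9362, with 4.82 to 5.12 on the other 5. In thymus the DKO animal N5895 read 6.46 for Lgals12, with 4.10 to 4.69 in the other 4 DKO animals and 4.31 in the WT animal, and its Angptl4 was 9.73 with 7.09 to 8.73 in the other 4 DKO animals and 6.23 in WT. In KO lymph node, WT lymph node and DKO thymus alike, the array highest in Lgals12 was also the highest in Angptl4. Across tissues Angptl4 alone did not mark high Lgals12. It reached 9.71 in WT thyroid, 9.33 in WT intestine and 9.61 in DKO kidney. Lgals12 reached at most 5.16, 4.64 and 4.75 in these groups. The part of fat, gland or lymphoid cells in the lymph node and thymus samples was not tested.

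**Figure D3:**
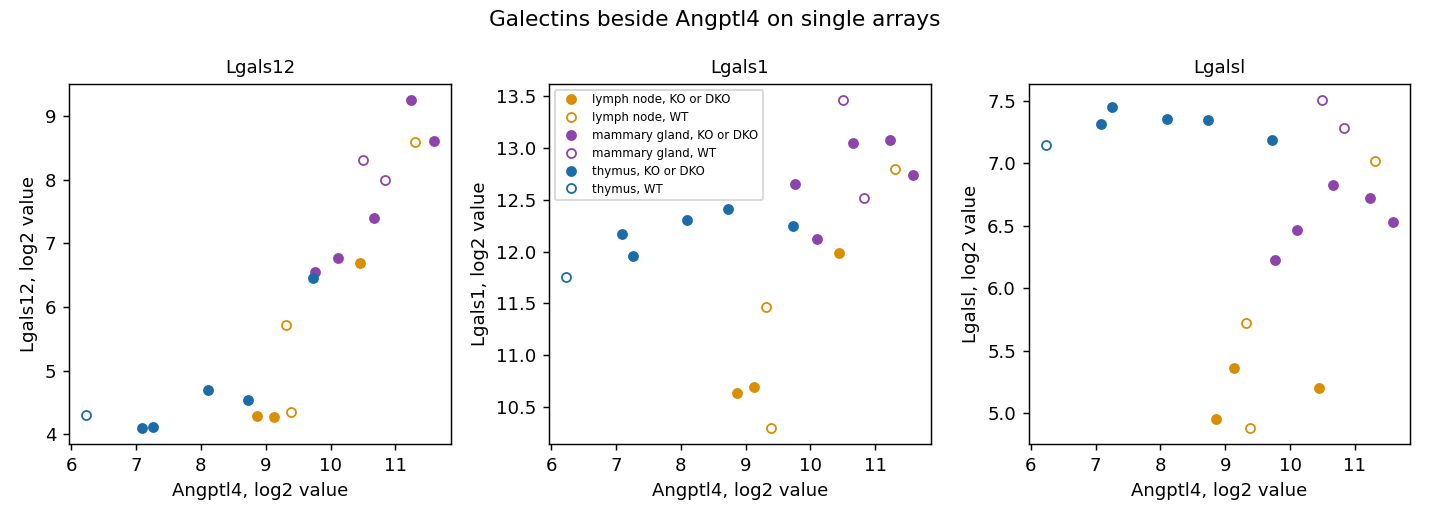
Lgals12, Lgals1 and Lgalsl (y axes) against Angptl4 (x axes), deposited log2 values on single arrays of lymph node, mammary gland and thymus, filled for KO or DKO and open for WT. The WT lymph node at 11.31 for Angptl4 lies among the mammary gland arrays for Lgals12 (8.60) and Lgals1 (12.80).

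Prol1, the second gene by likeness to Lgals12 (r = 0.97, after Il1r2 at 0.98), read 12.47 and 9.79 in 2 DKO mammary glands and 2.52 to 2.61 in the other 3, against 9.74 in both WT mammary glands. The 2 DKO mammary glands high in Prol1 (N5895 and N5892) were the 2 lowest for Lgals12, so the likeness held over tissue means and not within mammary gland.

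Lgals7, a galectin of stratified epithelia such as skin, had tissue means that spanned 1.544 log2 units, with its highest values in DKO mammary glands. It averaged 7.35 ± 1.25 in mammary gland, 7.01 ± 0.21 in thymus, 6.88 ± 0.16 in testes, 6.67 ± 0.19 in thyroid, 6.55 ± 0.25 in lymph node, 6.22 ± 0.18 in kidney, 6.09 ± 0.11 in intestine and 5.81 ± 0.13 in brain, and every neighbour overlapped. The DKO mammary glands read 9.92, 7.62, 7.52, 7.02 and 6.12, against 6.63 and 6.63 in WT mammary glands. Of these, 9.92, 7.62 and 7.52 exceeded every array kept of the other tissues, the highest being 7.31 in thymus. The value of 9.92 belongs to the female DKO animal N5891, and 0 of the 5 listed keratinocyte markers were measured, so the part of skin in that sample was not tested. N5891 also had the highest Lgals3 among DKO mammary glands, 11.02, with 9.61 to 9.94 in the other 4, against 10.78 and 10.72 in WT mammary glands. The difference of mammary gland from other tissues, 0.69 ± 0.22 (SE, limma, adjusted p = 0.00848), stayed under the size needed for a call, and it was 0.40 ± 0.12 without N5891.

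Lgals8, which marks damaged endosomes inside cells for autophagy, was the most even member, at 8.54 ± 0.16 in intestine, 8.37 ± 0.13 in testes, 8.12 ± 0.18 in lymph node, 8.09 ± 0.15 in thymus, 8.05 ± 0.11 in kidney, 8.02 ± 0.40 in mammary gland, 7.68 ± 0.10 in thyroid and 7.41 ± 0.43 in brain. Neighbouring tissues overlapped throughout, and none of its 8 tissue differences reached 1 log2 unit. The intestinal difference was 0.57 ± 0.13 (SE, limma, adjusted p = 1.67e-04).

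Lgalsl ran opposite to most galectins in brain. It averaged 8.21 ± 0.33 in thyroid, 7.73 ± 0.22 in brain, 7.30 ± 0.11 in thymus, 6.79 ± 0.46 in mammary gland, 6.65 ± 0.24 in intestine, 5.73 ± 0.21 in kidney, 5.52 ± 0.79 in lymph node and 5.23 ± 0.14 in testes. Brain and thymus, and intestine and kidney, did not overlap, while thyroid overlapped with brain. It was higher in thyroid by 1.77 ± 0.14 and in brain by 1.22 ± 0.14, and it fell by 1.64 ± 0.14 in testes, 1.30 ± 0.14 in lymph node and 1.05 ± 0.12 in kidney (SE, limma, adjusted p between 6.85e-13 and 1.19e-09). Chga, the only 1 of 7 listed hormone cell and thyroid markers measured, varied between 5.77 and 12.83 in KO thyroid and between 12.73 and 13.06 in WT thyroid. Its part in the Lgalsl levels was not tested.

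For the other members, the named genes with the most similar tissue means were Reg4 (r = 0.99) and Reg1 (0.99) for Lgals2, B3gnt3 (0.996) and Reg1 (0.992) for Lgals4, Galnt4 and Pgm2 (0.96 each) for Lgals9, Klra2 (0.91) and B4galt1 (0.90) for Lgals3, and Bmp1 (0.94) and Vcan (0.89) for Lgalsl. For Lgals7 they were Cxcl2 and Gfra3 (0.93 each), for Lgals8 Anapc1 (0.89) and Il1rn (0.87), and the second for Lgals1 was Igf1 (0.93). Each r is over 8 tissue means, chosen as the highest among all named genes, and is a description.

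Of 14 listed galectin ligands and receptors 7 were measured, and of 20 listed enzymes that build the chains galectins bind 19 were measured. In intestine 8 of 19 enzymes were higher (12.9% of all features) and 2 lower (15.6%). The higher ones include B3gnt3, which extends chains with N-acetylglucosamine (3.46 ± 0.08), Gcnt3, which branches mucin chains (3.47 ± 0.13), and Mgat3, which adds the bisecting residue (1.49 ± 0.08). St6gal1, whose α2,6-linked sialic acid is known to block binding of several galectins, fell by 1.72 ± 0.23 in intestine (SE, limma, adjusted p = 1.88e-08), as did Gcnt1 by 1.73 ± 0.32. The median enzyme differed by 0.85 in intestine, where the median of all features was -0.26. In kidney 6 of 19 were higher (11.4% of all features) and 1 lower (8.93%), in brain 2 (16.8%) and 4 (16.4%), and in testes 2 (8.52%) and 7 (19.3%). In lymph node 2 were higher (11.4%) and 2 lower (8.52%), in mammary gland 1 (10.7%) and 1 (3.12%), in thyroid 0 (6.54%) and 4 (6.65%), and in thymus 0 (8.41%) and 0 (5.3%). Of the ligands and receptors, Havcr2, the receptor paired with Lgals9, was higher in lymph node (1.53 ± 0.12) and differed little in intestine (-0.01 ± 0.14), where Lgals9 peaked. Cd44, a surface glycoprotein bound by several galectins, was higher in lymph node (1.86 ± 0.22), thymus (1.79 ± 0.28) and mammary gland (1.78 ± 0.22), and fell by 3.02 ± 0.22 in testes, 2.38 ± 0.18 in kidney and 1.02 ± 0.22 in brain.

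Between St6galnac2 KO and WT mice no galectin was called, and neither was any other feature, in thyroid (0%), lymph node (0%), brain (0%) or intestine (0%), with sex as a covariate (limma, adjusted p under 0.05). At an unadjusted p under 0.05 there were 42, 33, 18 and 60 of 963 features, which included 0, 0, 0 and 1 galectins. That galectin was Lgals1 in intestine, at 10.23 and 9.68 in KO, against 9.66 and 9.13 in WT (0.55 ± 0.14, adjusted p = 0.499), where the lowest KO value lay just above the highest WT value. Lgalsl in intestine read 7.001 and 6.58 in KO, against 6.55 and 6.48 in WT (0.27 ± 0.16, adjusted p = 0.868), and with all arrays as labelled this difference changed sign.

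In lymph node Lgals3 read 9.20 to 9.36 in KO animals, against 9.43 to 9.98 in WT animals (-0.35 ± 0.21, adjusted p = 0.801), and Lgals2 was 4.72 to 4.77 in KO, against 4.89 to 5.18 in WT (-0.25 ± 0.16, adjusted p = 0.801). The groups did not overlap for either gene, and neither passed the test. Groups this small can separate by chance. Of 63 sets of a galectin and a tissue of both lines with more than 1 array per group, knockout values lay wholly above WT in 4. They lay wholly below in 3 and overlapped in 56. The share over all features was not computed. In brain Lgals8 read 6.91 to 7.70 in KO, against 7.18 to 7.93 in WT (-0.41 ± 0.23), and Lgals7 5.77 to 6.04 in KO, against 5.65 to 5.77 in WT (0.16 ± 0.09, adjusted p = 0.887 for both). In thyroid Lgals3 differed by -0.23 ± 0.20 and Lgals1 by -0.18 ± 0.16 (adjusted p = 0.989 for both). Over the 4 tissues together no galectin was called (0% of features, limma), the smallest p being those of Lgals2 (-0.10 ± 0.08) and Lgals8 (-0.12 ± 0.10), nor did any knockout effect differ between tissues (0%), the smallest p being those of Lgalsl (adjusted p = 0.952) and Lgals8 (0.964). At an unadjusted p under 0.05 these last 2 tests gave 32 and 45 features, with 0 galectins in either.

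Between B4galnt1/B4galnt2 DKO and WT mice no galectin was called in thymus (0% of features), testes (0.312%), mammary gland (0%) or kidney (0.104%). At an unadjusted p under 0.05 there were 27, 124, 97 and 129 features (limma), with 1, 0, 1 and 4 galectins among them. The thymus test held 1 WT array, which was taken to vary like the DKO arrays. Lgalsl had the smallest p in mammary gland and in kidney. In mammary gland it read 6.82, 6.72, 6.53, 6.46 and 6.22 in DKO animals, against 7.51 and 7.28 in WT animals (-0.85 ± 0.19, limma, adjusted p = 0.242), with every DKO value below both WT values. Cd2 was separated in the same way there, at 5.65 to 6.32 in DKO, against 6.58 and 6.93 in WT. So was the mean of the 6 brain markers, at 4.21 to 4.31 in DKO, against 4.374 and 4.496 in WT. The 2 measured kidney markers averaged 4.296 to 4.42 in DKO, against 4.503 (N9686) and 5.714 (N3738) in WT, also without overlap. The myeloid, B cell, connective tissue and epithelial marker means and Angptl4 overlapped between the groups, and the part of any of these in the Lgalsl difference was not tested. In kidney it read 5.88, 5.61, 5.59, 5.51 and 5.41 in DKO animals, against 6.02, 5.95, 5.82 and 5.80 in WT animals (-0.33 ± 0.08, adjusted p = 0.249), with 1 DKO value inside the WT range. In testes it read 5.27, 5.12 and 5.04 in DKO, against 5.44, 5.32 and 5.21 in WT (-0.18 ± 0.12, adjusted p = 0.523), and in thymus 7.18 to 7.45 in DKO, against 7.15 in the 1 WT animal.

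Over the 4 tissues Lgalsl was the 1 galectin called, with a log2 difference of -0.30 ± 0.07, DKO minus WT (SE, limma, adjusted p = 0.0386), where 1.14% of features were called. The call did not survive most alternatives: adjusted p was 0.0601 with the animal as a replicate block, 0.0518 without the sex term, 0.138 with all arrays as labelled, 0.0801 after a second quantile normalization, 0.164 with arrays centred on their medians and 0.829 (-0.12 ± 0.08) without mammary gland. It was also lost without animal N3738, N3740, N5892, N5893, N5895 or N9686 (adjusted p 0.0551 to 0.178). The median feature itself had a difference of -0.07 in this comparison. A test of whether the DKO effect differs between tissues called no galectin (0.623% of features), with Lgalsl at an adjusted p of 0.110 and Lgals7 at 0.691.

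The other members named by smallest p in this line were Lgals1 in thymus, at 11.96 to 12.42 in DKO, against 11.75 in the 1 WT animal (0.57 ± 0.17, adjusted p = 0.989), and Lgals7 there (0.33 ± 0.23). In testes Lgals1 read 9.84, 9.77 and 9.35 in DKO, against 10.48, 10.33 and 9.45 in WT (-0.43 ± 0.25, adjusted p = 0.474). Without animal N9700, the lowest WT value, this became -0.75 ± 0.15 and was called. In mammary gland Lgals4 differed by 0.62 ± 0.28 (adjusted p = 0.516). In kidney 4 galectins had an unadjusted p under 0.05, Lgalsl, Lgals3 (-0.28 ± 0.10), Lgals9 (0.53 ± 0.21) and Lgals4 (0.26 ± 0.12), with adjusted p of 0.249 to 0.367. Kidney Lgals9 read 8.39, 7.997, 7.97, 7.71 and 7.47 in DKO, against 8.001, 7.47, 6.92 and 6.87 in WT, where the 2 lowest WT values belong to N3740 and N3738, the animals whose thymus arrays stood apart. Over the 4 tissues Lgals3 differed by -0.27 ± 0.13 (adjusted p = 0.323). None of the 7 ligands and receptors and none of the 19 enzymes was called in any knockout comparison of either line.

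**Figure D4:**
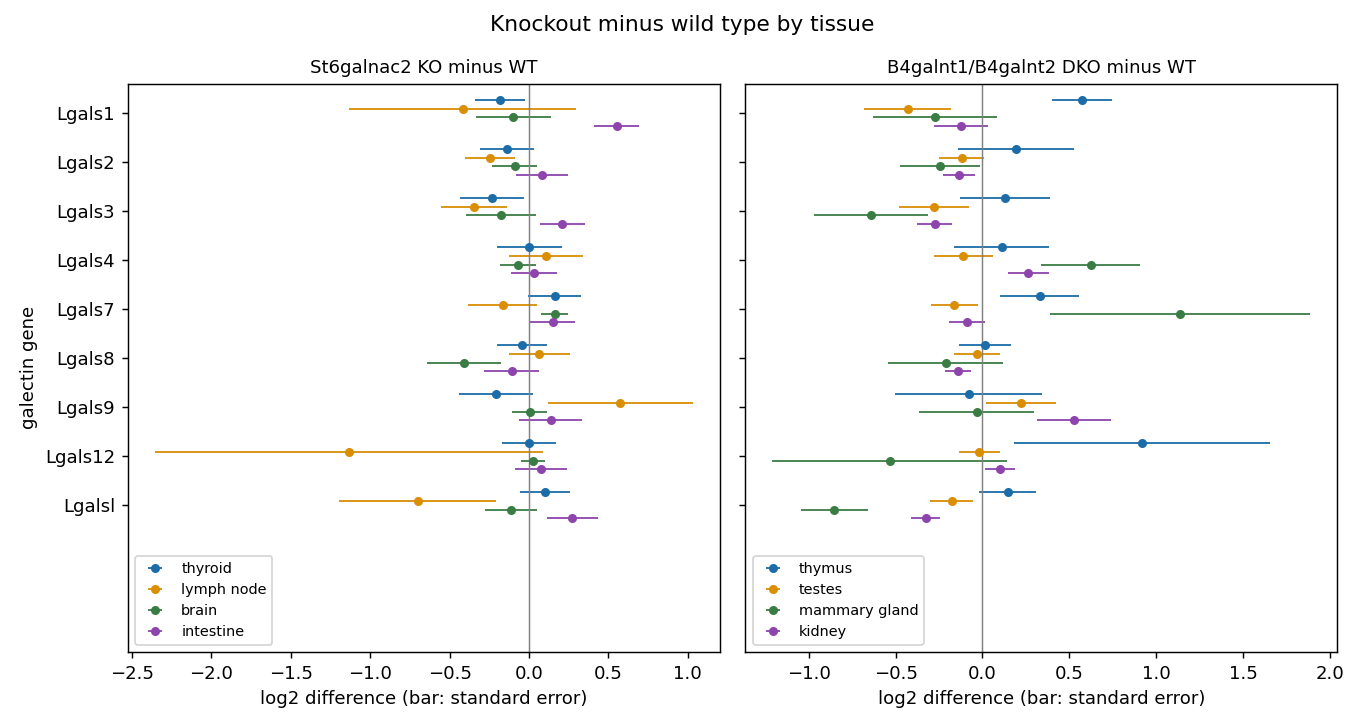
Log2 difference between KO or DKO and WT (x axis) for each galectin (rows) and tissue (colours), with standard errors from limma, the St6galnac2 line on the left and the B4galnt1/B4galnt2 line on the right. The differences with the widest errors are Lgals12 in lymph node (-1.13) and Lgals7 in mammary gland (1.14), and Lgalsl lies below 0 in testes, mammary gland and kidney.

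Female and male animals were compared in the sex term of the kidney and mammary gland fits. No galectin was called in kidney, where 9.03% of features were, or in mammary gland, where 0.312% were. At an unadjusted p under 0.05 there was 1 galectin among 230 features in kidney, and 0 among 111 in mammary gland. In kidney Lgalsl was higher in females by 0.21 ± 0.09 (limma, adjusted p = 0.153) and Lgals9 by 0.43 ± 0.22 (adjusted p = 0.282), neither past the test. Without male animal N5893, whose Lgals9 of 8.39 was the highest in kidney, the Lgals9 difference was 0.62 ± 0.16 and was called. In mammary gland Lgals7 differed by 1.33 ± 0.69 (adjusted p = 0.532), carried by the female N5891, and Lgals3 by 0.48 ± 0.30 (adjusted p = 0.616).

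Mice of the St6galnac2 line, KO and WT pooled, were last set against C57 mice. The labels name the line's tissue intestine and the C57 tissue small intestine, so the region of gut and the line cannot be told apart in that comparison. B4galnt2, which is not a target in this line, read 7.29 to 7.82 in intestine of the line, against 11.35 to 12.43 in C57 small intestine. No galectin was called in brain, where 6.85% of features were, or in intestine, where 5.61% were. At an unadjusted p under 0.05 there were 4 galectins among 306 features in brain, and 0 among 299 in intestine. In brain Lgals12 read 3.64 to 3.76 in the line, against 3.83 to 4.20 in C57 (-0.36 ± 0.09, limma, adjusted p = 0.0518), and Lgals7 5.65 to 6.04 in the line, against 5.98 to 6.49 in C57 (-0.42 ± 0.12, adjusted p = 0.0584), the first pair without overlap. Without C57 animal GDWTF2 both were called, at -0.47 ± 0.07 and -0.55 ± 0.11. The brain values of Lgals12, in the line and in C57, all lie below 4.21, the 25th percentile of all values. Whether they are transcript or array background was not tested. In intestine Lgals9 read 11.42 to 11.87 in the line, against 11.30, 10.84 and 9.19 in C57 (1.15 ± 0.49, adjusted p = 0.161), and Lgals12 differed by -0.34 ± 0.16 (adjusted p = 0.203). The intestinal peaks were present in C57 as well, where Lgals4 averaged 13.52 ± 0.10 and Lgals2 12.41 ± 0.35 (SD, n = 3 each) in intestine, with 6.22 ± 0.19 and 5.07 ± 0.17 in brain. The median feature itself differed by -0.16 in brain and -0.27 in intestine. Of the listed ligands and enzymes, Cd44 differed by -1.25 and St6gal1 by -1.45 in intestine, both lower in the line (limma, adjusted p = 0.0405 for both). Leukocyte markers were lower on the same arrays without overlap. Cd2 read 4.37 to 4.70 in the line, against 5.07 to 5.82 in C57. The 3 measured B cell markers averaged 4.88 to 5.03 in the line, against 5.31 to 5.73 in C57, and the 6 measured myeloid markers 5.35 to 5.56 in the line, against 5.78 to 6.26 in C57. Their part in these differences was not tested.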

How the data were processed

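Total RNA of mouse tissues was hybridised to a custom Affymetrix array, and the values analysed are the authors' deposited log2 values after RMA, per the submitters' processing notes; the RMA version, and whether all 60 arrays were normalized together, are not given in the sources used here. RMA quantile-normalizes arrays, so a shift shared by most features of a tissue is removed. Features were named through their RefSeq accessions; 963 of 1246 got a name and the unnamed ones stayed out of the tests. Each array was correlated with the mean profile of its labelled tissue, and the 4 arrays under 0.3 were left out. A mean was fitted per line, genotype and tissue with limma 3.58.1 in R 4.3.3, with Benjamini-Hochberg adjustment over all 963 named features. Each tissue was the equal mean of its knockout and wild-type groups. Knockout comparisons were fitted within a tissue with a sex covariate, which testes (all male) did not need. One KO intestine sample (animal 9093) took its sex from the title, and C57 samples carry no sex label. The animal was the replicate. Several tissues came from the same animal. Deviations from the group mean correlated at a median of 0.0243 between tissues of the same animal (63 pairs) and -0.0103 between different animals (182 pairs), and the animal as a replicate block was an alternative. Nothing says when RNA was extracted or arrays were run, so p-values measure the spread between these samples.

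The members, the marker and gene lists, the tests and the naming were chosen with earlier results of these data known. In each genotype, sex and C57 comparison the galectins called were named, and where fewer than 2 were called, those with the smallest p up to 2. For each galectin the 2 genes with the highest Pearson correlation of tissue means were named. Alternatives were all arrays as labelled, wild-type arrays only, tissues of the same line only, C57 arrays added, no sex term, 1 fit per line, the replicate block, a second quantile normalization, median centring, dim features left out, all 1246 features tested and each animal left out. Promoters were from RefSeq GRCm38.p6, which held 7 of the 9 genes, without Lgals1 and Lgals12. The fits were tested on simulated data.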

Additional observations from a re-analysis of the deposited data

Results flagged for a closer look

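Of 36 sets of values (9 galectins in each of the 4 groups that held 4 or 5 arrays), 3 had a value far from the rest of its group by Dixon's test, which chance gives in about 1 of 20. Lgals3 read 11.02 in the DKO mammary gland of N5891, with 9.94 next below it, on the array that also held the highest Lgals7. Lgals12 read 6.46 (6.455 as deposited) in the DKO thymus of N5895, with 4.695 next below it, beside the highest Angptl4 of that group. Lgals3 read 8.72 in the WT kidney of N9700, with 9.06 next above it.

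The 9099 brain array left out of the comparisons gave a signal for 4 intestinal galectins above every other brain array. Lgals2 read 12.41 on it, against at most 5.34 on the other brain arrays. Lgals3 read 11.27, against at most 6.79. Lgals4 read 13.61, against at most 6.49. Lgals9 read 11.45 (11.445), against at most 6.79. The 9099 intestine array read at brain-like levels for the same 4 genes, and whether the labels of these arrays were exchanged was not tested beyond the match of their profiles.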

How the results depend on the processing

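The number of arrays limits every comparison of genotype, and detection calls were not available to separate dim values from background. Over all alternatives 260 values of the main counts equalled the main count or stayed within a set ratio of it, and 21 moved further. For single genes 607 values kept their side of the threshold, and their direction where the test has one. Another 9 became significant, 17 lost significance and 3 reversed. The reversals were Lgals1 in St6galnac2 KO minus WT thyroid (0.16 after a second quantile normalization), Lgalsl in KO minus WT intestine (-0.039 with all arrays as labelled) and Lgals2 over the 4 tissues of that line (0.11 with all arrays as labelled), none past the threshold. The count of galectins higher in a tissue lay between 10 and 15 over the alternatives, and between 12 and 13 without single animals. The count lower in a tissue was 14 with all arrays as labelled, 10 with intestine left out of the tissues compared, and 18 to 19 without single animals. With the animal as a replicate block these counts were 12 and 19, and the count for DKO minus WT over 4 tissues was 0 in place of 1; the block changed no other call. That count was also 0 with all arrays as labelled, with no sex term, after a second quantile normalization, with arrays centred on their medians and with mammary gland left out of the mean, and 0 to 1 without single animals. In 1 fit per line, 1 galectin was called in DKO minus WT mammary gland (Lgalsl, -0.85 ± 0.13) and 1 in female minus male mammary gland (Lgals7, 1.33 ± 0.39). With all arrays as labelled 1 galectin (Lgalsl) had a DKO effect that differed between tissues, and the range without single animals was 0 to 1, with 1 without N5891. Without single animals the count was 0 to 1 in DKO minus WT testes (1 without N9700) and in female minus male kidney (1 without N5893), and 0 to 2 in the St6galnac2 line minus C57 brain (2 without GDWTF2), where testing all features gave 1 (Lgals12). Lgals7 in mammary gland lost significance with wild-type arrays only (0.21), against the same line only (0.47), after a second quantile normalization (0.41) and without N3738 (0.69) or N9686 (0.68). The causes of these changes were not tested. The KO minus WT intestine fits without 1 animal, KO or WT, pooled the spread over the tissues of the line. The single-tissue fit then had no residual degrees of freedom. Comparisons of thymus without N9700 were not run, as no WT thymus array remained, nor were the 2 DKO comparisons over 4 tissues that need it.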
